A study of Vitis vinifera with 204 samples.

Results

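The comparison described here was made in the berry skin and flesh (pericarp) of the grapevine Vitis vinifera, cultivar Cabernet Sauvignon, in the 2012 season, between day 63 and day 74 after veraison, the moment at which berries soften and begin to colour. It used 6 RNA-seq libraries of each day. These 12 libraries fill 4 of the 68 combinations of season, day and thinning in the series, each of which holds 3 libraries, and were chosen by the season, time point and thinning in their titles and source names. All vines had been thinned by removing clusters after fruit set: on each day 3 libraries came from vines that had lost 50% of their clusters and 3 from vines that had lost 75%, called the 50% arm and the 75% arm. Every vine belonged to 1 clone of the cultivar on 1 rootstock in 1 vineyard, unthinned vines were not analysed here, and each sample was a pool of 60 berries taken from 6 clusters, with the seeds removed during grinding. The 6 libraries of day 80, the last sampling of the season, were used to ask whether the change was kept, and the 6 of day 53 served as a baseline that the comparison itself did not use.

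After veraison a grape berry imports sugar through the phloem, loses organic acid and, in a dark cultivar, stores anthocyanins in the skin. Late in ripening the import slows and the berry can lose water, so the sugar concentration of the juice may go on rising after sugar per berry has stopped rising. Pericarp is a mixture of skin, flesh and vascular cells. In such a bulk sample fewer cells of a type and less RNA per cell cannot be told apart.

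Expression was deposited as RPKM, reads per kilobase of gene and scaled to the mapped reads of the library, and the depth of each library is unknown. The summed RPKM of the 12 libraries lay between 858575 and 1001260. Genes were listed by ID only. The reference gene table held 0 of the 29971 IDs. Gene names, pathway lists, sequences and markers of seed or other tissue could therefore not be used, and the labelled tissue was not checked against markers. Day 63 held between 2 and 10 values per library listed at 0 where both other replicates of the same arm and day held at least 5 RPKM. On day 74 there were 31 in replicate 1 of the 50% arm and 38 in replicate 2 of the 75% arm. The median over the series was 6.

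Sugar content, given in the labels for each sample, was higher on day 74 than on day 63 in every sample. On day 63 it was 22.33, 24.44 and 24.78 g/100 ml in replicates 1 to 3 of the 50% arm and 19.55, 24.92 and 19.90 in those of the 75% arm. Day 74 samples had 29.63, 25.75 and 26.62 in the 50% arm and 28.69, 26.10 and 26.61 g/100 ml in the 75% arm. The lowest sample of day 74 was thus above the highest of day 63. The means were 27.2 ± 1.56 and 22.7 ± 2.46 g/100 ml (SD, n = 6), a difference of 4.58, with an exact two-sided permutation p of 0.00216 and 0.00649 after adjustment over 3 tests. Without replicate number 1 the difference was 2.76 and without number 3 it was 4.73, each with an adjusted exact p of 0.0857, where 4 samples against 4 cannot give an unadjusted p below 0.0286. Within 1 arm, 3 samples against 3 cannot give a p below 0.1.

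On day 80 the sugar content was 26.21, 19.78 and 29.07 g/100 ml in the 50% arm and 25.98, 22.49 and 27.92 in the 75% arm. Its mean, 25.2 ± 3.48 (SD, n = 6), lay between those of the earlier days. The difference from day 74 was -1.99 and that from day 63 was 2.59, and neither passed the exact permutation test, with an adjusted p of 0.247 for both. Both lowest values of day 80 belonged to replicate number 2. Without number 2 the day 80 mean exceeded that of day 63 by 5.66, with an adjusted exact p of 0.0429 for 4 samples against 4. Number 2 was left out after its low values were seen, so this p is not read as a test. With single samples or other numbers left out, the difference from day 63 went down to 0.805.

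The libraries with replicate number 2 stood apart in gene expression too, on day 63 and on day 80, in both arms. Distance between libraries was measured as the root mean square difference in log2(RPKM + 1) over 11765 genes with a mean of at least 5 RPKM on days 53 to 80. It was taken to each library numbered 1 or 3 of a day and then averaged. On day 63 the average distance of the number 2 libraries was 0.42 in both arms to numbers 1 and 3 of day 53. To those of day 63 it was 0.589 and 0.593. On day 80 the average distance of the number 2 libraries was 0.513 and 0.521 to numbers 1 and 3 of day 63. To those of day 80 it was 0.697 and 0.578. Libraries with the same number in both arms deviated from their group means together on day 63, with correlations across genes of 0.353 to 0.805, and on day 80, with 0.381 to 0.740. On day 74 these correlations were between -0.084 and 0.223. The labels do not say what a number stands for, and the 6 libraries of a day may therefore hold fewer than 6 independent samples. Results that rest on these libraries are given with and without them.

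**Figure D1:**
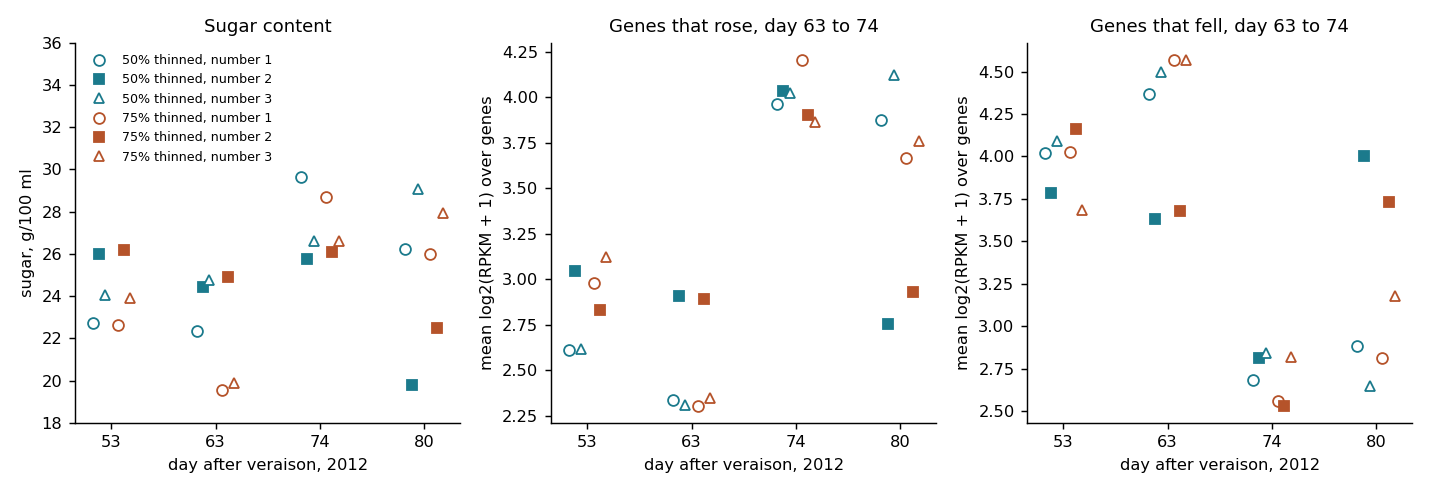
Sugar content in g/100 ml (left) and the mean log2(RPKM + 1) of the 759 genes that rose (middle) and the 750 that fell (right) from day 63 to day 74, by day after veraison; each point is 1 library, colour gives the thinning arm, shape the replicate number, and filled squares are number 2. The filled squares sit with the other libraries on day 74, while on day 80 they lie near 2.8 for the genes that rose where the other 4 libraries lie between 3.66 and 4.12.

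Between day 63 and day 74, 759 genes rose and 750 fell at least 2-fold, which is 3.65% and 3.61% of the 20770 genes tested (limma on log2(RPKM + 1), adjusted p under 0.05). The interval was 11 days long. Both directions were balanced on the scale as deposited, but not on every scale: when libraries were scaled by median ratios, 604 genes passed as higher and 954 as lower, so that the share of higher calls went from 50.3% to 38.8%. The median change of all genes was 0.07 on the log2 scale before that scaling. When the log2 values of both arms were averaged per replicate number, leaving 3 values a day, 758 rose and 751 fell.

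Most changes were of moderate size and affected genes of ordinary abundance. The median log2 change was 1.31 among the genes that rose and -1.34 among those that fell. Under 3-fold changes made up 539 of the rises and 527 of the falls. At least 4-fold changes numbered 95 and 100, and at least 8-fold changes 17 and 23. The genes that rose went from a median of 3.66 to a median of 12.6 RPKM, and those that fell from 14.5 to 4.01 RPKM, while the median over all genes tested was 6.99 RPKM on day 63 and 7.43 on day 74. Genes above 1000 RPKM on the higher day numbered 3 among the rises and 17 among the falls. Only 2 genes went from under 1 RPKM in all 6 libraries of day 63 to at least 5 RPKM in all 6 of day 74, and 0 went the other way.

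The groups did not overlap for 620 of the 759 genes that rose and for 603 of the 750 that fell, meaning that all 6 libraries of one day lay on one side of all 6 of the other. Over all genes tested, 20.0% lay wholly above and 11.0% wholly below on day 74. The genes just inside the 2-fold threshold had log2 changes of 1.00 in either direction, and those just outside it also rounded to 1.00. These shares describe genes that the comparison itself selected.

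**Figure D2:**
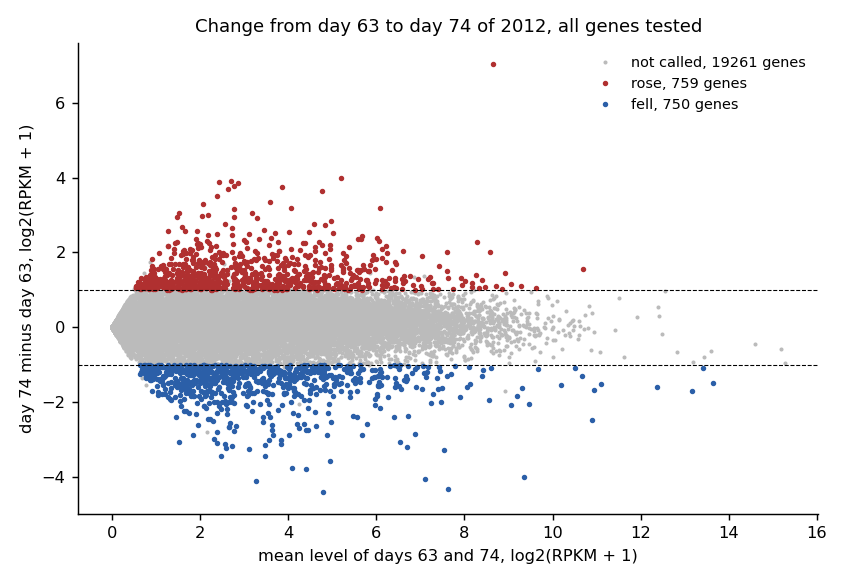
Change from day 63 to day 74 in log2(RPKM + 1) against the mean level of both days, 1 point per gene for all 20770 genes tested; red points are the 759 genes that rose, blue points the 750 that fell, and dashed lines mark 2-fold. Calls are spread over the whole range of levels, and the blue points reach higher levels than the red; the red point at the top is a gene listed at 0 in 4 of 6 libraries of day 63.

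The largest change among the rises came from a gene listed at 0 in 4 of 6 libraries of day 63 and in 1 of 6 of day 74, and otherwise at 18885 RPKM or more on both days. Over the series it is listed at 0 in 41 libraries, so its change is not read as one of expression. It is counted among the 759 and was left out of the shares of total RPKM given next.

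Taken over the library as a whole, the genes that fell gave up a large part of the RPKM total. They held 13.3 ± 3.77% of it on day 63 and 4.83 ± 0.55% on day 74 (SD, n = 6). On day 63 the number 2 libraries, at 8.47% and 8.57%, were lower than the other 4, at 14.7% to 16.2%. On day 74 the 6 libraries ran from 4.06% to 5.58%. The genes that rose held 1.41 ± 0.35% on day 63 and 4.21 ± 0.28% on day 74. Both groups were chosen by their change between these same libraries, so the direction of these shifts was largely set in advance.

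The pair of genes with the largest rises under the naming rule were VIT_16s0115g00170 and VIT_18s0001g09550. VIT_16s0115g00170 stood at 7.92, 31.5 and 2.39 RPKM in the 50% arm and 3.17, 31.9 and 3.51 in the 75% arm on day 63. It had reached 139, 131 and 105 RPKM in the 50% arm and 266, 130 and 142 in the 75% arm on day 74. No value of day 74 came within 3-fold of a value of day 63, and on day 63 both number 2 libraries were the highest. Its log2 change was 3.99 (SE 0.60, adjusted p 4.54e-09). On days -28 to 21 of 2012 its mean was at most 1.67 RPKM, and it reached 40.1 ± 23.8 RPKM on day 53 (SD, n = 6). In other seasons it was high earlier in some libraries. On day 0 of 2014 it held 60.2 ± 74.2 RPKM, with a highest library of 165. Day 21 of 2014 had 39.3 ± 26.8, and day 22 of 2013 had 22.9 ± 28.5 with a highest library of 79.4.

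VIT_18s0001g09550 was close to silent until late in the season, with day means of at most 0.45 RPKM up to day 42 of 2012. On day 63 it held 0.472, 1.47 and 0.353 RPKM in the 50% arm and 0.441, 1.40 and 0.360 in the 75% arm. On day 74 it held 24.6, 19.7 and 15.7 RPKM in the 50% arm and 39.9, 26.7 and 24.6 in the 75% arm. The lowest library of day 74 was above 10 times the highest of day 63. The log2 change was 3.90 (SE 0.26, adjusted p 6.81e-28).

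Of the genes that fell, VIT_04s0008g05010 and VIT_05s0094g00350 had the largest changes under the rule. VIT_04s0008g05010 stood at 188, 47.6 and 196 RPKM in the 50% arm and 260, 44.6 and 206 in the 75% arm on day 63. By day 74 it was down to 2.67, 10.7 and 6.33 RPKM in the 50% arm and 4.62, 3.73 and 4.64 in the 75% arm. Again the number 2 libraries of day 63 were nearest to day 74, and the groups did not overlap. The log2 change was -4.42 (SE 0.37, adjusted p 3.87e-21). The gene had been declining before this interval. Its mean was between 2141 and 2696 RPKM on days -28 to 11 of 2012, 472 on day 32 and 123 ± 68.3 on day 53 (SD, n = 6). It also declined in the other seasons, to 73.1 ± 21.8 RPKM on day 43 of 2013 and 52.4 ± 53.4 on day 63 of 2014.

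VIT_05s0094g00350 was the more abundant of the pair. It held 909, 485 and 1263 RPKM in the 50% arm and 1431, 406 and 1513 in the 75% arm on day 63. The values of day 74 were 51.2, 56.3 and 54.5 RPKM in the 50% arm and 37.6, 30.3 and 37.1 in the 75% arm. All 6 libraries of day 74 were lower than all 6 of day 63, and each value of the 75% arm was below each of the 50% arm. The log2 change was -4.32 (SE 0.50, adjusted p 2.37e-13).

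**Figure D3:**
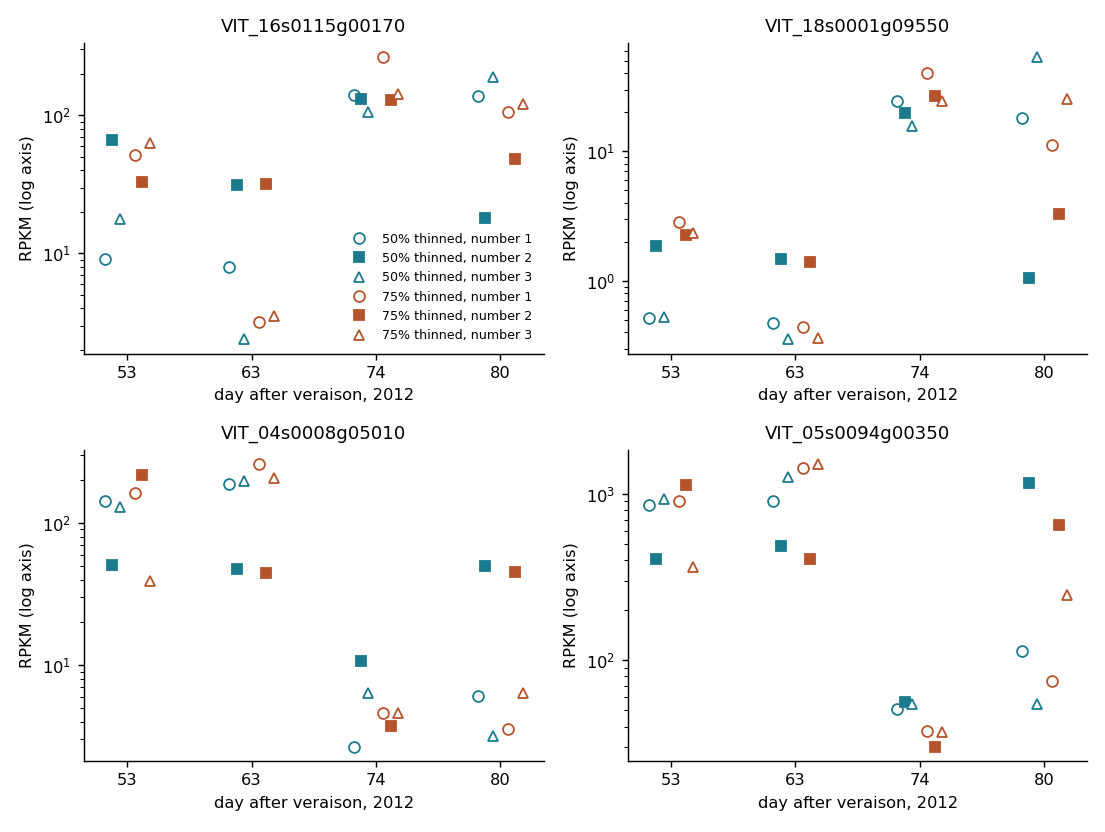
RPKM (log axis) of the 4 named genes on days 53 to 80 after veraison of 2012, 1 point per library, with colour for the thinning arm, shape for the replicate number and filled squares for number 2. In each panel all libraries of day 74 are separated from all of day 63, and on day 80 the filled squares lie toward the level of day 63.

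Both arms moved in the same direction for nearly all members. The genes were called on the mean of both arms, so this was largely set in advance. All but 2 of the 759 genes that rose, 757, and all 750 that fell had the same sign in each arm, and the median log2 changes were 1.29 and 1.35 for the rises and -1.25 and -1.48 for the falls at 50% and 75% thinning. A reading that does not choose genes on the values tested takes them from 1 arm and reads them in the other. It is not fully independent, because same-number libraries of both arms deviated together on day 63, with correlations of 0.353 to 0.805. The 50% arm alone called 735 genes higher and 630 lower, 3.54% and 3.03% of all genes. In the libraries of the 75% arm 97.4% of those 735 were higher and 98.6% of those 630 lower, against 55.7% and 42.3% of all genes. The 75% arm itself called 75.0% and 88.4% of them. The 75% arm called 866 genes higher and 920 lower, 4.17% and 4.43%. In the 50% arm 98.5% and 98.7% of them had the same sign, and 63.6% and 60.5% were called there.

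The difference between arms was tested directly for each gene. The change from day 63 to day 74 differed between arms in 45 genes, 0.217% of those tested (limma, contrast of the 2 within-arm changes, adjusted p under 0.05), with 823 at an unadjusted p under 0.05. In 41 of the 45 the change was more negative or less positive at 75% thinning, and 17 of the 45 were among the genes that rose. The count rests on few libraries. On day 74, leaving out replicate 3 of the 50% arm gave 7 and leaving out its replicate 2 gave 25, while leaving out replicate 1 of the 50% arm gave 90 and replicates 1 and 3 of the 75% arm gave 84 and 93. Without number 1, 2 or 3 in both arms and on all days there were 96, 7 and 29, of which 89, 3 and 14 were lower at 75% thinning. In a limma fit of the 12 libraries alone there were 0, with 257 genes at an unadjusted p under 0.05. For the 4 named genes the adjusted p of this difference was 1.0.

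Leaving out each of the 12 libraries in turn gave 701 to 913 genes higher and 686 to 927 lower. Both highest counts in each direction came from leaving out a number 2 library of day 63. In all 12 of these fits 583 of the 759 and 570 of the 750 were called in the same direction. Without number 2 in both arms, 1135 genes rose and 1082 fell, and these held 721 of the 759 and 713 of the 750. Without number 1 the counts were 645 and 583, and without number 3 they were 712 and 691.

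On day 80 the libraries numbered 1 and 3 lay near day 74, and those numbered 2 lay nearer to day 63. With all 6 libraries, 391 genes were higher and 416 lower on day 80 than on day 63, 1.88% and 2.0% of those tested, and these held 326 of the 759 genes that had risen and 343 of the 750 that had fallen. The median log2 difference of day 80 from day 63 was 0.93 for the genes that had risen and -0.96 for those that had fallen. This comparison shares the libraries of day 63 with the first. By number, the median was 1.40 and -1.54 in numbers 1 and 3, and -0.06 and 0.18 in number 2. From day 63 to day 74 the same medians had been 1.51 and -1.62 in numbers 1 and 3, and 1.00 and -0.86 in number 2. The number 2 libraries start from another level: on day 63 they already differed from numbers 1 and 3 of that day by a median of 0.53 and -0.85. Those of day 80 differed from numbers 1 and 3 of day 63 by 0.47 and -0.61, and from the mean of day 74 by -1.08 and 1.03. Without number 2, 1089 genes were higher and 1096 lower, and these held 598 (78.8%) and 657 (87.6%) of the genes that had changed. Without number 1 the totals were 236 and 238, and without number 3 they were 226 and 269. All 6 libraries of day 80 lay above all 6 of day 63 in 172 of the 759 genes and below in 164 of the 750, against 6.54% and 6.27% of all genes. In numbers 1 and 3 alone, 4 libraries against 4, this held for 682 and 676, against 35.2% and 22.2%.

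Each library of day 80 gave the same picture for the members as a whole. The mean log2(RPKM + 1) of the 759 genes that had risen was 3.87, 2.75 and 4.12 in replicates 1 to 3 of the 50% arm and 3.66, 2.93 and 3.76 in those of the 75% arm. It had been between 3.86 and 4.21 on day 74 and between 2.31 and 2.91 on day 63. A number 2 library of day 80 thus lay within the range of day 63 and the other just above it, while the remaining 4 lay further above. Sugar content was lowest in the same 2 libraries of day 80, at 19.78 and 22.49 g/100 ml, and its part in the result was not tested.

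Set directly against day 74, day 80 showed 124 genes higher and 85 lower, 0.597% and 0.409% of those tested, and again shares libraries with the first comparison. Of the 759 genes that had risen 67 were lower, and of the 750 that had fallen 82 were higher. Their median log2 differences were -0.43 and 0.42. Without number 2 the totals were 41 higher and 37 lower, with 32 of the 759 and 11 of the 750 moving back and medians of -0.09 and 0.10. In a fit of the libraries of both days alone the totals were 14 and 4, with 1 of the 759 and 6 of the 750 moving back. Single libraries moved the totals as well. Without replicate 2 of the 50% arm of day 80 they were 73 and 48, and without that of the 75% arm 81 and 54. Without replicate 3 of the 50% arm of day 80 they were 195 and 129, without replicate 1 of the 75% arm of day 80 they were 187 and 102, and without replicate 1 of the 75% arm of day 74 they were 122 and 54. Without number 1 they were 192 and 108, and without number 3 they were 250 and 210.

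A comparison of day 80 with day 53 uses no library of the first comparison. It called 330 genes higher and 522 lower, 1.59% and 2.51% of those tested. Of the genes that had risen from day 63 to day 74, 87.0% were higher on day 80 than on day 53, against 50.7% of all genes, and 164 (21.6%) were called higher. Of those that had fallen, 89.6% were lower, against 48.9% of all genes, and 248 (33.1%) were called lower. Without number 2 it called 591 higher and 646 lower. The medians were 0.58 and -0.73 with all libraries, 0.94 and -1.03 in numbers 1 and 3, and -0.11 and -0.10 in number 2.

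The 4 named genes followed the same division on day 80. VIT_16s0115g00170 held 138, 18.2 and 189 RPKM in the 50% arm and 106, 48.2 and 121 in the 75% arm. VIT_18s0001g09550 held 18.2, 1.05 and 53.8 RPKM in the 50% arm and 11.2, 3.28 and 25.2 in the 75% arm. For both genes the number 2 libraries were the lowest of the day. Against day 53, the log2 difference of VIT_16s0115g00170 on day 80 was 1.30 (SE 0.60, limma adjusted p 0.0680), which did not pass. That of VIT_18s0001g09550 was 2.23 (SE 0.26, adjusted p 4.56e-13).

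VIT_04s0008g05010 held 6.04, 49.9 and 3.19 RPKM in the 50% arm and 3.57, 45.1 and 6.41 in the 75% arm on day 80. VIT_05s0094g00350 held 114, 1163 and 54.7 RPKM in the 50% arm and 75.3, 646 and 246 in the 75% arm. Here the number 2 libraries were the highest. From day 74 to day 80 the log2 difference of VIT_05s0094g00350 was 2.26 (SE 0.50, adjusted p 0.000362) and that of VIT_18s0001g09550 was -1.07 (SE 0.26, adjusted p 0.00106). Those of VIT_16s0115g00170, -0.82 (SE 0.60, adjusted p 0.354), and of VIT_04s0008g05010, 0.94 (SE 0.37, adjusted p 0.0514), did not pass the threshold. These SEs come from a spread pooled over the series, while the libraries of day 80 ran widely. In numbers 1 and 3 the log2 change of VIT_18s0001g09550 from day 63 was 4.20 by day 74 and 4.10 by day 80. For VIT_05s0094g00350 it was -4.79 and -3.58.

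Within the 2012 season the interval had the second highest number of calls, after the one that ended at veraison. Genes called in either direction made up 5.96% and 4.81% of those tested in the first 2 intervals before veraison, 13.9% from day -9 to veraison, and 3.98%, 2.43% and 4.27% in the 3 that followed. From day 32 to day 63 the share was 0.746%, 1.32% and 0.385% per interval. From day 63 to day 74 it was 7.27%, and from day 74 to day 80 it was 1.01%.

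Averaged over genes, the levels moved little until day 42, although single members changed at the onset of ripening in both directions, as counted further on. The mean log2(RPKM + 1) of the genes that rose was between 2.09 and 2.34 on every day of 2012 up to day 42, 2.87 on day 53, 2.52 on day 63, 4.00 on day 74 and 3.52 on day 80. That of the genes that fell was between 4.48 and 4.91 up to day 42, then 3.96, 4.22, 2.71 and 3.21. On day 74, 603 (79.4%) of the genes that rose lay above all their earlier day means of 2012, and 565 (75.3%) of those that fell lay below all of theirs. Over all genes tested these shares were 27.1% and 21.8%. The members were selected on their day 74 values, so their larger shares follow in part from that choice and were not tested. From day 53 to day 63, before the burst, the median log2 difference was -0.34 for the genes that later rose and 0.26 for those that later fell. It was -0.46 and 0.54 in numbers 1 and 3, opposite to what followed, and -0.03 and -0.30 in number 2. The day 63 libraries enter both intervals. Against day 53 in place of day 63, day 74 called 449 genes higher and 643 lower, 2.16% and 3.1%, with 379 of the 759 and 475 of the 750 among them.

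In 2013 and 2014, seasons sampled for a shorter time, most members had late differences of the same sign as in 2012. A minority were called with that sign: 6.85% of the genes that rose and 20.5% of those that fell in 2013, and 8.56% and 9.47% in 2014. By day 63 of 2014 the mean log2(RPKM + 1) was 3.27 ± 0.23 for the genes that rose in 2012 and 3.60 ± 0.42 for those that fell, and by day 43 of 2013 it was 2.95 ± 0.09 and 3.83 ± 0.06 (SD, n = 6). From day 49 to day 63 of 2014, 82 genes were called higher and 121 lower, 0.395% and 0.583%, and 65 and 71 of these were members. In 2014 the median log2 change was 0.41 and -0.45, and 89.2% and 91.6% of the members had the sign of 2012, against 52.7% and 45.4% of all genes. From day 29 to day 43 of 2013, 84 genes were called higher and 695 lower, 0.404% and 3.35%. Of the genes that rose in 2012, 52 were higher and 18 lower there, and of those that fell 154 were lower and 4 higher. The medians were 0.37 and -0.63, and 79.1% and 92.4% of the members had the sign of 2012, against 46.8% and 51.8% of all genes. On those days of 2013 the libraries differed in form: 2 to 4 of 9114 steadily expressed genes were listed under 0.5 RPKM on day 29 and 37 to 40 on day 43, and the part of this in the counts was not tested. Levels are set side by side across seasons with care, because from 31 to 50 of these genes were listed under 0.5 RPKM in each library of 2014 and from 0 to 14 in those of 2012.

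Day 74 of 2012 also lay further along a late ripening score taken from 2014 alone. The score was the mean log2 level of 1529 genes called higher, less that of 1675 called lower, on days 56 and 63 than on days 8 to 21 of 2014, 7.36% and 8.06% of those tested. Per library it was 1.14, 1.74 and 1.03 in the 50% arm and 0.913, 1.71 and 1.02 in the 75% arm on day 63. On day 74 it was 2.48, 2.41 and 2.43 in the 50% arm and 2.65, 2.57 and 2.46 in the 75% arm. On day 80 it was 2.53, 1.62 and 2.73, and 2.47, 1.89 and 2.42. On day 63 of 2014 itself it was 1.85 ± 0.43 (SD, n = 6), with a highest library of 2.20, below every library of day 74 of 2012.

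The 2014 lists and the members overlapped in part. Of the 759 genes that rose in 2012, 365 were in the list of higher genes, 48.1% of the members and 23.9% of the list. Of the 750 that fell, 416 were in the list of lower genes, 55.5% of the members and 24.8% of the list. At the onset of ripening in 2012, from days -28 to -9 to days 11 and 21, 5.63% of all genes were called higher and 20.6% lower. The genes that fell late had been called higher at onset in 196 cases (26.1%) and lower in 197 (26.3%), and those that rose late in 96 (12.6%) and 130 (17.1%).

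**Figure D4:**
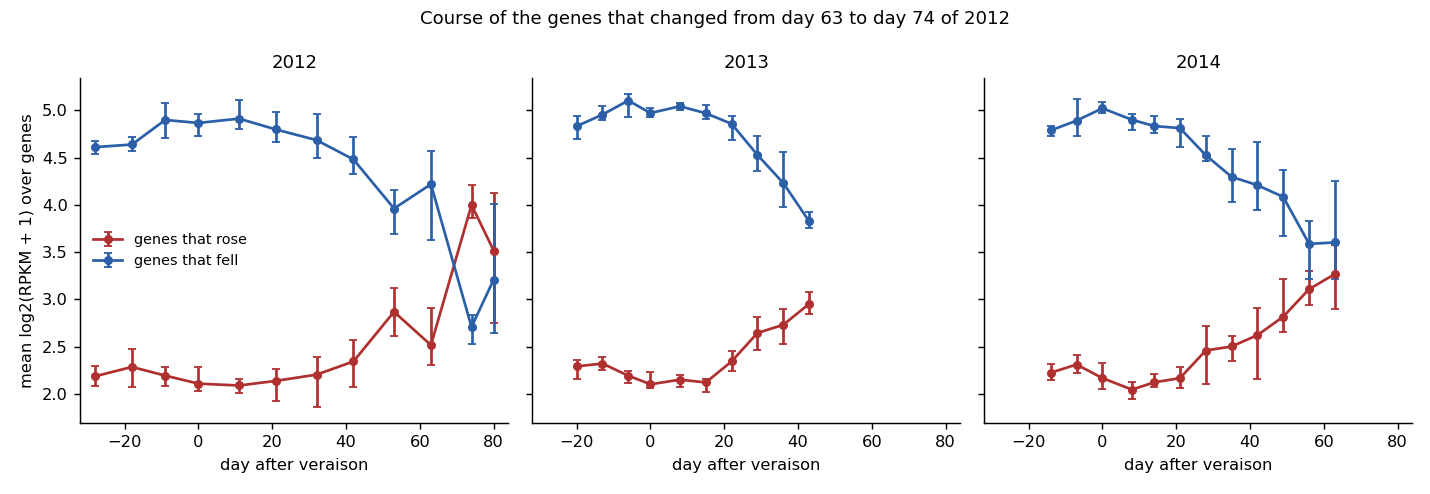
Mean log2(RPKM + 1) of the 759 genes that rose (red) and the 750 that fell (blue) from day 63 to day 74 of 2012, by day after veraison in each season; points are means of 6 libraries and bars run from the lowest to the highest library. The lines approach each other from about day 20 in each season and cross only between days 63 and 74 of 2012, the seasons 2013 and 2014 ending on days 43 and 63.

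Members were not spread evenly over the ID prefixes, the part of an ID before its gene number. Of 117 prefixes with at least 30 genes tested, VIT_16s0100 had the highest share of genes that rose, 23 of 87 or 26.4%, against 3.65% of all genes and 11.4% in the next prefix. The 23 rose by a median of 1.63 on the log2 scale, with a range of 1.05 to 3.00. With these 87 genes left out, the other IDs that begin with VIT_16 held 34 rises among 703 genes, or 4.84%. The sources used here do not give how reads common to near-identical copies were divided, so the 23 are not counted as independent genes.

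The 23 genes varied among the libraries of day 74 more than most results here. Their median level on day 63 was 0.0491, 0.596 and 0.179 RPKM in replicates 1 to 3 of the 50% arm and 0.0332, 1.00 and 0.288 in those of the 75% arm. On day 74 it was 2.75, 8.49 and 14.7 RPKM in the 50% arm and 4.33, 0.834 and 0.655 in the 75% arm. Replicates 2 and 3 of the 75% arm on day 74 thus overlapped the number 2 libraries of day 63. Only 4 of the 23 genes were free of overlap, against 620 of the 759 genes that rose and 20.0% of all genes. All 23 were called in the 50% arm alone and 9 in the 75% arm alone, and the change of 9 differed between arms in the test above.

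On day 80 the median level of the 23 genes was 0.813, 0.850 and 0.761 RPKM in the 50% arm and 0.722, 0.154 and 0.880 in the 75% arm. The spread between libraries was small beside that of day 74. Of the 23, 20 were called lower on day 80 than on day 74, and 1 was still called higher on day 80 than on day 63. In a limma fit of the libraries of days 74 and 80 alone, 0 of the 23 were called lower, and 20 were lower at an unadjusted p under 0.05. Without number 2, 32 of the 759 genes that rose were called lower on day 80 than on day 74, and 18 of the 32 carried this prefix.

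Their mean log2(RPKM + 1) was 0.71 ± 0.39 on day 63, 2.45 ± 1.30 on day 74 and 1.05 ± 0.25 on day 80 (SD, n = 6). At the last sampling of 2013 and of 2014 it was 0.95 ± 0.16 and 0.69 ± 0.10. Other days held high libraries too. On day 0 of 2013 it was 1.09 ± 0.74 with a highest library of 2.54, and on day 28 of 2014 1.20 ± 1.02 with 2.52. Before veraison of 2012 it was 1.55 ± 0.86 on day -18, with a highest library of 2.62, and 0.79 ± 0.12 on day -28. On day -28 a single gene held 96.6% of the summed RPKM of the 23. At the onset of ripening 2 of the 23 were called lower and 0 higher, against 20.6% and 5.63% of all genes.

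**Figure D5:**
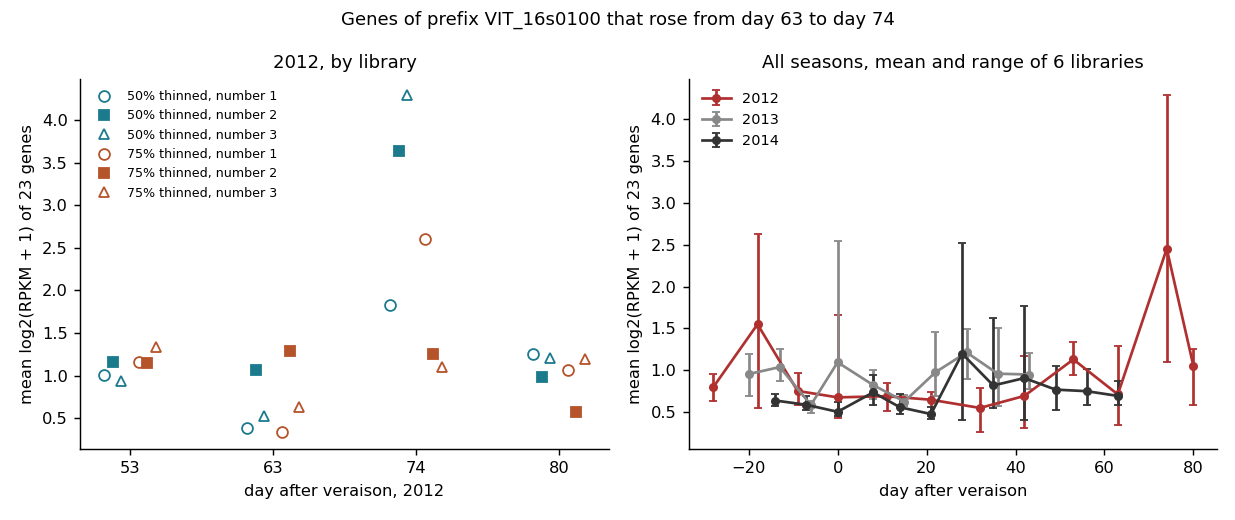
Mean log2(RPKM + 1) of the 23 genes of prefix VIT_16s0100 that rose from day 63 to day 74 of 2012, by library on days 53 to 80 (left; colour gives the thinning arm, shape the number, filled squares number 2) and by day in each season (right; points are means of 6 libraries, bars the lowest and highest library). Day 74 of 2012 has the highest day mean, 2.45, and the widest range, from 1.10 to 4.29, and its 2 lowest libraries lie within the range of day 63.

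Other prefixes held smaller groups. Among prefixes with at least 100 genes tested, VIT_05s0049 had the highest share of falls, 17 of 149 or 11.4%, against 3.61% of all genes. In 16 of the 17 the groups did not overlap, against 603 of the 750 genes that fell and 11.0% of all genes. Their median level on day 63 was 40.1, 15.3 and 47.5 RPKM in the 50% arm and 49.3, 21.5 and 48.2 in the 75% arm. By day 74 this median was 5.75, 5.90 and 4.66 RPKM, and 2.75, 5.84 and 4.05, with no overlap. On day 80 the number 2 libraries, at 30.02 and 25.0 RPKM, lay above the other 4, at 5.82 to 11.3. Of these 17 genes, 8 had been called higher at the onset of ripening, against 26.1% of the genes that fell and 5.63% of all genes.

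VIT_05s0077 had the highest share of rises among the prefixes of that size, 17 of 170 or 10.0%. Their median level was between 0.669 and 2.21 RPKM on day 63, between 2.77 and 23.9 on day 74 and between 2.32 and 4.42 on day 80. In 10 of the 17 genes the groups of day 63 and day 74 did not overlap, against 620 of the 759 genes that rose and 20.0% of all genes. In VIT_12s0134, 5 of 31 genes fell, 16.1%, and their median level went from between 9.83 and 22.0 RPKM on day 63 to between 3.17 and 7.30 on day 74. Prefixes were ranked on the calls themselves, so these shares are a description and were not tested.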

How the data were processed

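RNA-seq of pericarp was analysed from RPKM values that the authors computed, with TopHat2 2.0.6 and Cufflinks 2.0.2 per the submitters' processing notes. The sources used here name no settings, genome build or annotation. Libraries were not strand-specific, per the labels' protocols, so reads of overlapping genes on opposite strands cannot be separated. The depth is unknown, so no counting interval was computed. An exact 0 can be a failed estimate. Season, arm and number came from titles and source names; a year tag that differs from them was not used.

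The 20770 genes that reached 1 RPKM in 3 or more libraries were tested on log2(RPKM + 1) by limma 3.58.1 (R 4.3.3, intensity trend), with a mean for each of the 68 cells of season, day and arm over all libraries, arms weighted equally, Benjamini-Hochberg adjustment, a threshold of 0.05 and 2-fold. Fold changes on this scale are too small for genes of low RPKM. Sugar, from the labels, was tested by exact permutation (scipy 1.17.1). The main fit was run on simulated data with independent noise and the pooled spread of each gene. The simulation held neither the wider spread of days 63 and 80 nor the shared deviations of equal numbers, so it cannot speak to them. Samples are blocks of vines in 1 vineyard. The limma p-values and SEs rest on a spread per gene pooled over the 68 cells, not on that of the compared days alone. In 2012 the late ripening score had an SD of 0.37 on day 63 and 0.43 on day 80, against 0.09 on day 74. Where a day varied this much, the pooled spread can be too small and the p-value too low.

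Named genes are the 2 largest rises and 2 largest falls of at least 5 RPKM on the higher day, called in all 12 fits that leave out 1 library and without an implausible 0. The comparison, the genes and the lists were chosen with earlier results of these data known. Alternatives were other pseudocounts, filters, scalings, fold thresholds, library sets, a replicate block and left-out libraries. Leaving out a whole replicate number, averaging the arms and the comparison of day 74 with day 53 were chosen after seeing the data.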

Additional observations from a re-analysis of the deposited data

Results flagged for a closer look

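Of 48 groups of 6 libraries examined for a library far from the others, 2 were singled out, where chance singles out about 1 group in 20. VIT_16s0115g00170 had 266 RPKM in replicate 1 of the 75% arm on day 74, with the next highest library at 142. The summed RPKM of the 17 genes of VIT_05s0049 that fell was lowest in the same library, at 6232, with the next lowest at 8576. A single gene held 88.1% of that sum on day 74. The change from day 63 to day 74 differed between thinning arms in 45 genes by the test of the difference itself, a count that fell to 0 in a fit of the 12 libraries alone.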

How the results depend on the processing

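Each of the 4 named genes passed the threshold in all 31 alternatives run for it. The 12 of these that leave out 1 library were part of the naming rule, so passing them was set in advance. The genes were also picked for large changes. The number of genes called moved with the fold threshold and the pseudocount. In the order day 63 to 74, 63 to 80, 74 to 80 and 53 to 80, with higher before lower, a pseudocount of 0.1 gave 1579 and 1542, 898 and 997, 312 and 265, and 691 and 1176. With no fold threshold there were 7569 and 4563, 5917 and 4148, 1596 and 3099, and 5026 and 4340. At 1.5-fold there were 2709 and 1923, 1490 and 1412, 398 and 368, and 1197 and 1472. At 4-fold there were 95 and 100, 32 and 20, 17 and 4, and 38 and 39. Leaving out single libraries or numbers gave 645 to 1135 higher and 583 to 1082 lower from day 63 to 74, 226 to 1089 and 238 to 1096 from day 63 to 80, 41 to 250 and 37 to 210 from day 74 to 80, and 249 to 591 and 445 to 646 from day 53 to 80.

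From day 74 to 80, the libraries of both days alone gave 14 higher and 4 lower, the 50% arm alone 58 higher, and leaving out the 2 libraries of day 74 with the most zeros 132 lower. The 45 genes that differed between arms became 23 with a pseudocount of 0.1, 233 with no filter, 5 with a filter at 5 RPKM, 2 with libraries of 2012 only, 0 with those of both days (limma, 257 at an unadjusted p under 0.05), and 7 to 96 with libraries or numbers left out. The balance of higher and lower calls also turned: from day 74 to 80, 124 and 85 became 1596 and 3099 with no fold threshold and 58 and 94 in the 50% arm alone, and the 4 and 41 of the arm difference became 4 and 3 without number 2 and 15 and 14 without number 3. The cause of these shifts was not tested.

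Deviations of the same number and arm correlated at -0.115 to 0.190 between days 63 and 74, -0.597 to -0.035 between 63 and 80, -0.206 to 0.102 between 74 and 80 and -0.359 to 0.377 between 53 and 80, so the numbers were not taken as pairs. With the replicate block, 732 genes rose and 744 fell from day 63 to 74, 219 were higher and 263 lower from day 63 to 80, and 2 and 2 from day 74 to 80. The arm difference held 0 genes with either kind of replicate block (limma, 235 and 1106 at an unadjusted p under 0.05).

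The sugar difference of day 74 from day 63 was 4.58 with the replicate block (adjusted exact p 0.0938; 6 pairs cannot give an unadjusted p below 0.0312), 3.48 and 5.68 in the 50% and 75% arms alone, where 3 against 3 cannot pass, and 2.76 to 6.25 with libraries or numbers left out. That of day 80 from day 63 ran from 0.805 to 5.66, and that of day 80 from day 74 from -3.93 to -0.593. Unknown depth limits what can be said of genes near 1 RPKM.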
